A study of Mus musculus with 2 samples.

Results

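The enzymes and the chaperone that modify collagen chains in the cell and crosslink collagen outside it were followed in mouse primary chondrocytes stretched in culture. They comprise the lysyl oxidases Lox, Loxl1, Loxl2 and Loxl3, the catalytic subunits P4ha1, P4ha2 and P4ha3 of prolyl 4-hydroxylase, the lysyl hydroxylases Plod1 and Plod2, and the collagen chaperone Serpinh1. These 10 genes were chosen by function, with earlier results of these data known. Their probes were found through the RefSeq transcript that the scanner files list for each probe. The genes are 10 of 20656 genes named in this way and are covered by 17 probes.

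Chondrocytes came from C57BL/6J mice aged 6 days and were kept on fibronectin in silicon chambers for 48 h. Total RNA was taken before loading. The second sample followed 24 h after the cells had been stretched at 0.5 Hz over 30 min, each time by 10% of the resting length. RNA of each time point was labelled with Cy3 and hybridised to 1 Agilent SurePrint G3 mouse array, and both arrays were on 1 slide. The labels name no deletion, transgene or compound for either group, and whether cells of several animals were pooled is not given in the sources used here. Since each time point was measured once, no replicate check and no p-value can be given, and precision is limited by having 1 array per time point. Unloaded cells of the later time were not analysed here, and the effect of strain and that of 24 h more in culture cannot be told apart. The arrays measure whole cultures, in which fewer cells of a type and less RNA per cell cannot be told apart either.

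Collagen chains are modified in the endoplasmic reticulum before they fold. Prolyl 4-hydroxylase adds hydroxyl groups to proline, which keep the collagen helix stable at body temperature, and lysyl hydroxylases modify lysine, which later takes part in crosslinks and carries sugars. Serpinh1, also called Hsp47, binds the folded procollagen and accompanies it out of the endoplasmic reticulum. After secretion, copper-dependent lysyl oxidases convert lysine and hydroxylysine to aldehydes, which join neighbouring molecules. In cartilage these steps act mainly on the fibrils of collagens II, IX and XI, and they give the tissue its tensile strength.

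All values are processed intensities of the scanner software after background subtraction, and a level can be compared between the time points only for the same probe. Log2 ratios give the later minus the earlier array, with each array set relative to its 75th percentile, at an intensity of 466.37 before and 466.15 after. The error given with a ratio combines the errors that the scanner software assigns to the spots of both arrays. It covers error within the arrays only, and had a median of 0.20 over 14218 genes, here called detected, whose brightest probe stood well above background both times. For all 17 probes of the genes followed here it lay between 0.204 and 0.206. A limit of 2 errors was thus nearly the same ratio for each gene, and not a precision measured for that gene. For 264 detected probes printed at least 8 times, the spread between spots was smaller, with a median SD of 0.09 in log2 ratio. The scanner software placed 59.1% of the spots clearly over background on the earlier array and 57.7% on the later one, control spots aside, and 0 were saturated. All 14 chondrocyte markers listed were detected at both times, with a median log2 ratio of 0.10. Among markers of other cells, 8 of 8 macrophage, 3 of 7 endothelial, 2 of 6 erythroid, 6 of 9 skeletal muscle, 5 of 6 osteoblast and 2 of 3 tenocyte genes named on the arrays were detected at both times. The endothelial genes Cdh5, Tie1, Tek and Emcn and both beta-globin genes were not well above background at either time. The summed intensity changed from 29882 to 28949 for macrophage, from 5297 to 3657 for skeletal muscle, from 2150 to 1836 for osteoblast and from 2668 to 2094 for tenocyte markers. These sums follow their brightest probes, such as Itgam for macrophages and Tnni2 for muscle, and single markers differed from them. Of the detected markers of other cells, chosen after their values were seen, Ptprc (log2 ratio 1.14) and Myh8 (1.15) were more than 2-fold higher, and Ibsp (-2.06), an osteoblast gene, was 4.18-fold lower. Ptprc was dim, at 21 and then 46, and passed 2-fold by less than its error of 0.35. Of the detected markers, 4 of 8 macrophage, 4 of 6 skeletal muscle and 4 of 5 osteoblast genes had a ratio below 0. The median log2 ratio was 0.02 for macrophage, -0.22 for skeletal muscle, -0.64 for osteoblast and -0.11 for tenocyte markers. The part of such cells in the values below was not tested.

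All 17 probes of the 10 genes stood well above background at both times, and no spot of them was flagged as an outlier. None of the 10 genes differed by more than 2-fold on its brightest probe: 0 were higher and 0 were lower, against 0.668% and 1.83% of the detected genes. Loxl1 was higher by more than 2 within-array errors, which held for 7.24% of the detected genes, and Lox and Loxl3 were lower by more than 2, which held for 9.12%. With median or spike-in scaling Loxl3 (-0.35 and -0.36) came within 2 errors and P4ha1 (0.42 and 0.41) passed them, and with the mean over probes Loxl2 (-0.80) passed them as well. Lox was the only one beyond 1.5-fold, against 5.84% of detected genes lower and 3.66% higher by as much. This call depended on the processing: Loxl1 passed in place of Lox with median or spike-in scaling, both passed with quantile normalization, Loxl1 and Loxl2 passed with the mean over probes, and 0 genes passed after normexp background correction. Loxl2, P4ha1 and P4ha2 lay between 1 and 2 errors from 0, and P4ha3, Plod1, Plod2 and Serpinh1 lay within 1 error. Their median log2 ratio was -0.15, against -0.01 for all detected genes.

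**Figure D1:**
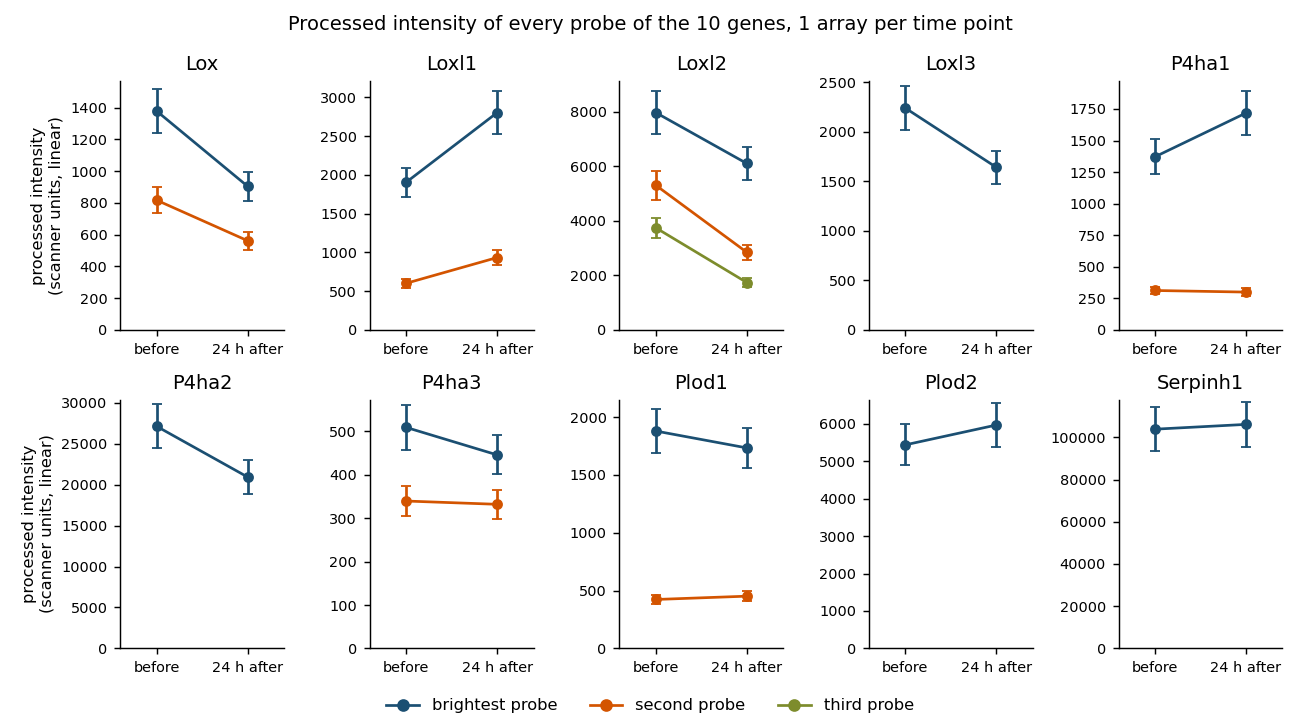
Processed intensity (linear scale from 0, one scale per gene) of every probe before and 24 h after loading, 1 array per time point; bars are the scanner software's error of the spot. Both probes of Lox, the 3 probes of Loxl2 and the probe of Loxl3 were lower at 24 h, and both probes of Loxl1 were higher.

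The lysyl oxidases did not move together. Lox, the founding member of the family, acts on fibrillar collagens and elastin, and its brightest probe (transcript NM_010728) read 1379 before loading and 905 at 24 h. This was 1.52-fold lower, a log2 ratio of -0.61 (within-array error 0.20). The dimmer probe of the same transcript read 817 and then 562, with a log2 ratio of -0.54. Both probes of Lox thus gave nearly the same ratio, with a difference of 0.07 against an error of 0.29 for such a difference. Of the spots within 100 µm of each Lox probe, 0 of 27 and 3 of 30 were also lower by more than 2-fold. In the order of all detected genes, Lox was 761st from the lowest log2 ratio.

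Loxl1, best known for the renewal of elastic fibres, was the one lysyl oxidase with a higher reading after loading. Its brightest probe (NM_010729) read 1905 before and 2804 at 24 h, 1.47-fold higher, with a log2 ratio of 0.56 (error 0.20). The other probe read 602 and then 934, with a log2 ratio of 0.64. Loxl1 was 601st from the highest log2 ratio among the detected genes. Its ratio exceeded that of Lox by 1.17 on the log2 scale (error 0.29), that of Loxl2 by 0.94 (error 0.29) and that of Loxl3 by 1.01 (error 0.29). Array scaling cancels in such differences, which are therefore the same under any scaling by 1 factor per array.

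Loxl2, which crosslinks collagens of cartilage and basement membrane and is expressed by maturing chondrocytes, was read by 3 probes of 1 transcript (NM_033325). The brightest went from 7976 to 6108, a log2 ratio of -0.38 (error 0.20) or 1.31-fold lower. The second went from 5310 to 2849, a log2 ratio of -0.90, and the third from 3747 to 1739, a log2 ratio of -1.11. All 3 were lower at 24 h, but by different amounts, and the third was the only one of the 17 probes beyond 2-fold. The range of 0.72 between them was larger than the error of 0.29 for a difference between probes. For comparison, 3633 genes had several detected probes, with a median range of 0.19, and 6.52% had a range at least as large as that of Loxl2. With the mean over its probes the log2 ratio of Loxl2 was -0.80. The stretch of the transcript that each probe matches is not given in the sources used here. Of the spots within 100 µm of each Loxl2 probe, 2 of 27, 4 of 30 and 2 of 26 were also lower by more than 2-fold, in the order of brightness, and their part in the ratios was not tested. Over all spots, 20.6% had at least 3 and 9.40% at least 4 such neighbours. Spots not well above background were included in all counts of neighbours.

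Loxl3, which is required for normal palate and vertebral cartilage in the mouse, had a single probe (NM_013586) that read 2240 before and 1642 at 24 h. This was 1.36-fold lower, with a log2 ratio of -0.45 (error 0.20). It differed from Lox by 0.16, less than the error of 0.29. How it compared with Loxl2 depended on the probe: the brightest Loxl2 probe was higher by 0.06, while the second was lower than Loxl3 by 0.45 and the third by 0.66, the last of these more than 2 errors. With the mean over probes, Loxl2 was lower than Loxl3 by 0.35. The remaining family member, Loxl4, is not among the 10 genes but was listed with the other collagen processing genes. It went from 7627 to 3939 on its brightest probe, a log2 ratio of -0.95, and had -0.56 on the other. Over the 5 genes of the family, 8 probes had a ratio below 0 and 2 above 0, both of them from Loxl1.

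**Figure D2:**
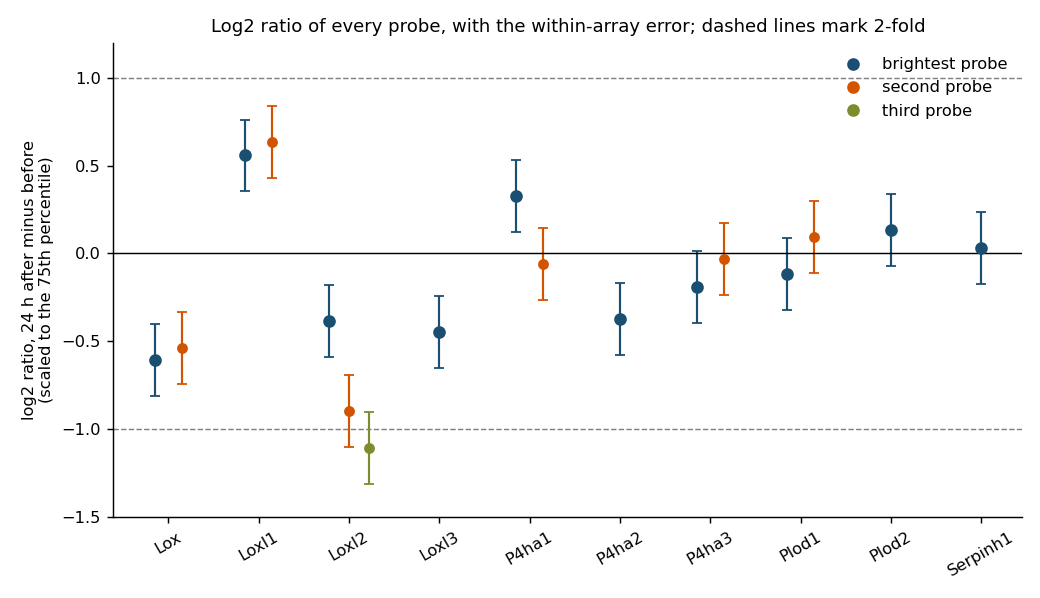
Log2 ratio of each probe, 24 h after minus before loading, after scaling each array to its 75th percentile; bars are the within-array error, and dashed lines mark 2-fold. Loxl1 lies at 0.56 and 0.64 above the other lysyl oxidases, the third probe of Loxl2 lies beyond 2-fold at -1.11, and the lysyl hydroxylases and Serpinh1 lie within 1 error of 0.

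Prolyl 4-hydroxylase is built from catalytic alpha subunits and the beta subunit P4hb, which is also protein disulphide isomerase. P4ha1, the most widely expressed alpha subunit, read 1371 before and 1718 at 24 h on its brightest probe (NM_011030). This was 1.25-fold higher, with a log2 ratio of 0.33 (error 0.20). Its dimmer probe read 312 and then 300, a log2 ratio of -0.06, and did not show the higher reading. The range of 0.39 between both probes exceeded the error of 0.29 for a difference between probes, so that a direction for P4ha1 rests on 1 of its 2 probes.

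P4ha2, the main alpha subunit of chondrocytes, had 1 probe (NM_011031), which read 27140 before and 20941 at 24 h. This was 1.30-fold lower, with a log2 ratio of -0.37 (error 0.20). P4ha1 exceeded P4ha2 by 0.70 on the log2 scale (error 0.29), the only pair among the alpha subunits to differ by more than 2 errors. With the mean over the probes of P4ha1 the difference was 0.51, and with its dimmer probe 0.31, both under 2 errors. P4ha3, which is expressed at a low level in most tissues, read 509 and then 446 on its brightest probe (NM_177161), a log2 ratio of -0.19 (error 0.20), and 340 and then 332 on the other, a log2 ratio of -0.03. Both probes of P4ha3 were within their error of 0. Near the brightest probe of P4ha3, 4 of 29 spots were also lower by more than 2-fold, and their part in its ratio was not tested. The beta subunit P4hb went from 37981 to 31314, a log2 ratio of -0.28 (error 0.20).

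P4ha1 and P4ha2 are known to be induced by hypoxia through HIF, and the sequences upstream of the alpha subunit genes are shown because these subunits, which serve the same enzyme, had different ratios on the arrays. The RefSeq promoter table (GRCm38.p6) held 5 of the 10 genes, namely P4ha1, P4ha2, P4ha3, Plod1 and Serpinh1. The 250 bases before each start are printed from 5′ to 3′ on the strand of the gene, and capitals mark each ACGTG or GCGTG, the core that HIF binds, on either strand. P4ha1 is on the forward strand at chr10:59323046-59323295, P4ha2 on the forward strand at chr11:54100674-54100923 and P4ha3 on the forward strand at chr7:100285270-100285519.
P4ha1: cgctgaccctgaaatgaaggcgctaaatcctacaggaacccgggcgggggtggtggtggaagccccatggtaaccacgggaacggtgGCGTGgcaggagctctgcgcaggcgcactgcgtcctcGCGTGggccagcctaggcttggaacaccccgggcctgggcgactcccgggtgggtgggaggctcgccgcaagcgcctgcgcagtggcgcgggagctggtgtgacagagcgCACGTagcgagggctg
P4ha2: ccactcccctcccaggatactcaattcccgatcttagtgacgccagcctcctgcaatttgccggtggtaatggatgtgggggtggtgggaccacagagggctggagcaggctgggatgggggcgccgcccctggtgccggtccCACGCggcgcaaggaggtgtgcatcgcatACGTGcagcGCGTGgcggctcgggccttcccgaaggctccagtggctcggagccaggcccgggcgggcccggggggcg
P4ha3: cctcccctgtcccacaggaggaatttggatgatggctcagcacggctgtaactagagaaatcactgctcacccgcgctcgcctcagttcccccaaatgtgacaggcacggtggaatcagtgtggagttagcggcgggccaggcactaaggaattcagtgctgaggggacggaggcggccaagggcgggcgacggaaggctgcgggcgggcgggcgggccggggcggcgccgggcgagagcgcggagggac

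The P4ha1 window held 3 matches, which begin 163, 126 and 16 bases before the start, and the P4ha2 window also held 3, which begin 107, 78 and 69 bases before the start. The P4ha3 window held 0, and those of Plod1 and Serpinh1 held 1 each. Of 32851 promoters of the same length, 38.6% held at least 1 match. P4ha1 and P4ha2 had log2 ratios of opposite sign on their brightest probes, but the dimmer probe of P4ha1 was at -0.06. Whether the matches have a part in the ratios was not tested. The heat shock element GAANNTTC was found in 0 of the 5 windows and in 6.69% of all promoters, and CCACG, part of the endoplasmic reticulum stress element, in 3 of the 5 and in 28.3%, mostly overlapping the HIF core. A match describes the letters and shows no binding.

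The lysyl hydroxylases and the chaperone stayed close to their readings before loading. Plod1, which hydroxylates lysine within the collagen helix, read 1880 before and 1734 at 24 h on its brightest probe (NM_011122), a log2 ratio of -0.12 (error 0.20). Its dimmer probe read 423 and then 452, a log2 ratio of 0.10, so that the probes of Plod1 lay on both sides of 0. Plod2, which hydroxylates the telopeptide lysines that enter hydroxylysine-derived crosslinks, read 5437 and then 5967 (NM_011961), a log2 ratio of 0.13 (error 0.20). The difference between Plod1 and Plod2 was 0.25, smaller than its error of 0.29. Serpinh1 read 103835 before and 106103 at 24 h (NM_009825), a log2 ratio of 0.03 (error 0.20). Of all detected genes, 89.9% had a ratio at least as far from 0 as Serpinh1.

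Of 10 pairs compared within the 3 families, 4 differed by more than 2 within-array errors, namely Loxl1 from each of the other lysyl oxidases, and P4ha1 from P4ha2. The share of all gene pairs that differ by as much was not computed. Between their 5th and 95th percentiles, the log2 ratios of the detected genes ran from -0.63 to 0.51. The differences of Loxl1 stayed beyond 2 errors under the 8 other ways of processing, and that of P4ha1 from P4ha2 under all of these but the mean over probes, which left 3 pairs. The signs of all 10 genes were the same under these alternatives, although Plod1 came within 0.01 of 0. Median scaling, spike-in scaling and keeping outlier spots could not change a difference between these genes. The deposited table could hardly do so, since it holds the same intensities rounded.

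**Figure D3:**
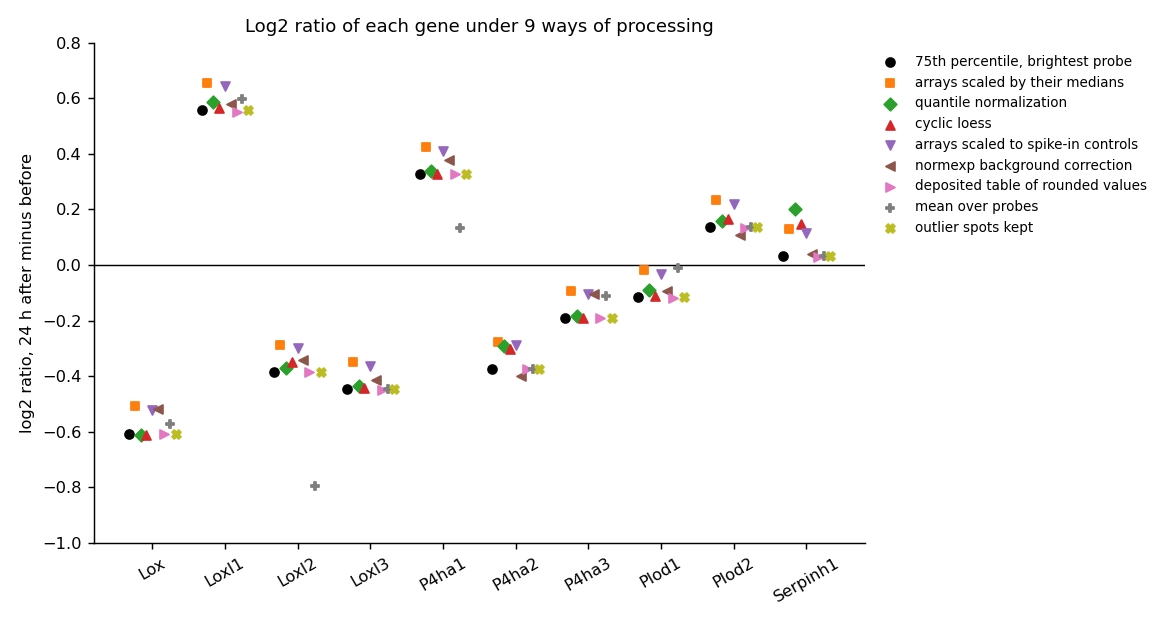
Log2 ratio of each gene, 24 h after minus before loading, under 9 ways of processing the same 2 arrays (1 marker each). No gene crosses 0, and the largest move is that of Loxl2, from -0.38 on its brightest probe to -0.80 as the mean over its 3 probes.

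The other genes of collagen processing were described from a list of 37 genes, of which 35 were detected and Tll2 and Adamts3 were not well above background at either time. Of these 35, 24 had a log2 ratio above 0 and 11 below, with a median of 0.13, and none passed 2-fold. By more than 2 within-array errors, 4 were higher and 2 lower, against 7.24% and 9.12% of all detected genes. Of all detected genes, 47.6% had a ratio above 0. Ppib, Pcolce, Adamts14, Sparc, Mbtps2 and Fn1 changed sign under at least 1 of 8 other settings, so that the counts by sign move with the processing. The median of the 35 genes was above that of the 10 genes and above that of all detected genes. The highest were Fmod (0.51), a proteoglycan that binds collagen fibrils, Fkbp14 (0.50), a prolyl isomerase of the endoplasmic reticulum with 0.77 on its dimmer probe, and P3h3 (0.46), of the prolyl 3-hydroxylase family. The lowest were Loxl4, P3h2 (-0.71), which hydroxylates proline at the other position of the ring, and P4hb. Only Loxl4 and P3h2 had a lower ratio than Lox, Loxl3, Loxl2 or P4ha2, and none of the 35 had a higher ratio than Loxl1. By role, 6 of 7 genes of folding and export had a ratio above 0 (median 0.21), as had both galactosyltransferases (median 0.27), 4 of 6 genes of prolyl 3-hydroxylation (median 0.17) and 5 of 6 detected genes of propeptide cleavage (median 0.10). Among the genes of propeptide cleavage, Adamts14 had -0.62 on its dimmer probe. Bmp1 (0.35) had 0.13 and -0.13 on its dimmer probes. Tll1 was counted as above 0 at 0.001 (error 0.22), with 0.35 (error 0.31) on its dimmer probe. Above 0 were also 4 of 6 matrix partner genes (median 0.10) and 1 of 2 transcription genes (median 0.14). Of the further crosslinking genes 1 of 2 was above 0 (median -0.30), and of the further hydroxylation genes 0 of 2 (median -0.22). The genes of copper supply, on which lysyl oxidases depend, had ratios of -0.14 and 0.18.

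The substrates of these enzymes were described through 12 genes of fibrillar collagens and elastin. Of these, 11 were detected, and Col24a1 was not well above background before loading. The median log2 ratio was 0.01, with 6 genes above and 5 below 0 (Col1a1 and Col2a1 were above 0 under 4 of 8 other settings), and none of the 11 passed 2-fold. Col11a1, a chain of the minor fibrillar collagen of cartilage, read 107657 before and 60799 at 24 h, a log2 ratio of -0.82, followed by Col5a2 (-0.23) and Col5a1 (-0.20). The highest were Col27a1 (0.50), Col5a3 (0.45) and Col3a1 (0.13). Lox, Loxl2, Loxl3 and P4ha2 had lower ratios than all of these substrates except Col11a1, and Loxl1 had a higher ratio than all of them.

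P4ha1, P4ha2, Plod2 and Lox are among the genes known to be induced through HIF, and 20 other HIF targets were set beside them. Like the other lists, this one was chosen with earlier results of these data known. All 20 were detected, 18 with a log2 ratio below 0, against 52.4% of all detected genes, and their median was -0.41. The lowest were Ankrd37 (-1.09), which alone passed 2-fold, Egln3 (-0.95) and Ndrg1 (-0.93). The highest were Adm (0.08), Egln1 (0.04) and Aldoa (-0.10). Aldoa was above 0 under 2 of 8 other settings, and Ldha and Eno1 under 1 each. P4ha1 and Plod2 had higher ratios than all 20 of these targets. P4ha2 had 11 of them below it and 9 above, and Lox 5 below and 15 above. The dimmer probe of P4ha1, at -0.06, lay below Adm and Egln1.

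**Figure D4:**
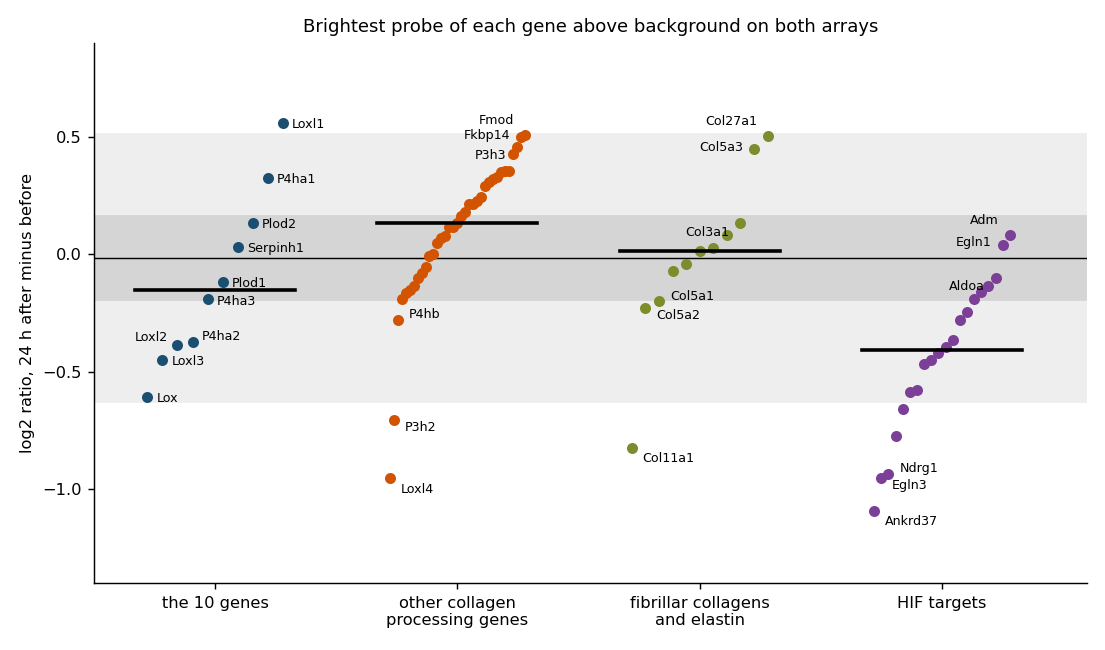
Log2 ratio (24 h after minus before loading) of the brightest probe of each detected gene: the 10 genes, 35 other collagen processing genes, 11 fibrillar collagens and elastin, and 20 HIF targets. Thick bars are medians (-0.15, 0.13, 0.01 and -0.41), the thin line is the median of all detected genes, and the grey bands hold the middle 50% and 90% of them; the 10 genes spread over most of the wider band, with Loxl1 above it.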

How the data were processed

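Total RNA of each time point was measured on 1 one-colour array. The intensity of every spot, as the authors deposited it, comes from Agilent Feature Extraction 10.10.1.1 (submitters' processing notes), after background subtraction and detrending within the array and with no normalization between arrays; flags and spot positions, other columns that the authors deposited, were used as given. A further deposited table holds these intensities rounded to 3 significant digits. Outlier spots (141 before loading and 138 at 24 h) were left out, spots of one probe were averaged as log2 values, and the 75th percentile over 55678 probes was subtracted. The percentiles differed by -0.0007. Probes were named by transcript accession, without versions, through a RefSeq table of GRCm38.p6, which matched 27229 probes to 1 gene each. The brightest probe represents a gene. No test was possible with 1 array per group. Named are all 10 genes and, in the lists of processing, collagen and HIF target genes, each gene past 2-fold and the 3 highest and 3 lowest. Members and lists were chosen with earlier results of these data known. The 2-fold call alone was tested on simulated data, with planted changes larger than any ratio of the 10 genes. Its noise was drawn from the software error, with no variation between cultures. In the simulated ratios this noise was smaller than the within-array error given with the ratios above. The calls at 1.5-fold and at 2 errors were not tested in this way. Python 3.11.15 (numpy 2.4.6, pandas 2.3.3, scipy 1.17.1), R 4.3.3 and limma 3.58.1 were used. Alternatives covered the scaling, background correction, probe choice, filters and fold limit.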

Additional observations from a re-analysis of the deposited data

How the results depend on the processing

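No paired analysis was possible because each time point has 1 array. Of 80 recomputed log2 ratios of the 10 genes, 79 moved by less than their within-array error and 0 changed sign. The exception was Loxl2 with the mean over probes (-0.80). Some of the 80 values could hardly move. No spot of these genes was flagged as an outlier, the deposited table only rounds the intensities, and 4 genes have 1 probe. The number of the 10 genes beyond 2-fold stayed at 0 except with a limit of 1.5-fold, where it was 1. At that limit it was 2 with quantile normalization, 2 with the mean over probes and 0 after normexp. These counts, and those at 2 errors, were added after seeing the data, and keep the errors of the brightest probe. The median of the 10 genes was -0.056 with median scaling, -0.069 with spike-in scaling and -0.061 with the mean over probes. With median, quantile, loess and spike-in scaling, in this order, the median of other collagen processing genes was 0.23, 0.20, 0.18 and 0.22, that of fibrillar collagens and elastin 0.11, 0.11, 0.11 and 0.10, and that of HIF targets -0.31, -0.34, -0.35 and -0.32. Median scaling raised the median of all detected genes by 0.10, the most of any scaling. Over all genes, 95 were higher and 260 lower by more than 2-fold. These counts were 38 and 117 after normexp, for which the cause was not tested, 492 and 983 with no filter on dim probes, 192 and 507 where 1 array sufficed for detection, 23 and 95 when 2-fold had to be passed by more than 2 errors, and 520 and 830 at 1.5-fold. The last 4 follow from the genes and limits admitted. Higher genes were 26.8% of those past 2-fold, and 38.8% with median scaling. Normexp used the median pixel intensities, with an offset of 50 added after the correction. Adding a constant by itself makes log2 ratios smaller in size, most for dim probes. Median and spike-in scaling add the same amount to every log2 ratio (0.098 and 0.085), and the medians moved by it. The cause of the other moves in the medians, and of the differences between the Loxl2 probes, was not tested.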
